A study of Mus musculus with 6 samples.

Results

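The 43 genes described here serve thiol redox balance: the transcription factor NRF2 and its sensor KEAP1, the makers and users of glutathione, the glutaredoxins, thioredoxins and peroxiredoxins, the enzymes that supply NADPH, and a few further NRF2 targets. They were chosen by name and function from a table of 55536 mouse genes, with a mean of at least 10 counts over the 6 libraries also required. All 43 met that minimum, so their passing the filter on low counts, which left 14318 genes for testing, was largely fixed by the choice.

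RNA was sequenced from OT-I T cells, which carry a transgenic receptor for an ovalbumin peptide. The cells came from mouse lymph nodes, and the labels give the genotype as wildtype in every sample. One group of 3 samples received the solvent DMSO and the other group of 3 received disulfiram (DSF), each for 2 h. Directions rest on reading the headings DO and DF in the deposited values as DMSO and DSF. Both groups were kept in a medium that held 0.05 mM 2-mercaptoethanol, which is itself a thiol, so the control cells were not free of added reductant. No source used here gives the concentration of DSF, the age of the mice or any stimulus. The labels call the samples biological replicates without saying whether they came from separate mice or cultures, so the p-values measure only the spread between these samples, which may be technical.

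Disulfiram is a disulfide drug that reacts with cysteine thiols and is reduced in cells, in part by glutathione. KEAP1 carries reactive cysteines and marks NRF2 for destruction, and when these cysteines are modified NRF2 escapes, enters the nucleus and, paired with a small MAF protein, binds antioxidant response elements near genes for glutathione synthesis, thioredoxin reduction, heme breakdown and drug efflux. NRF2 is thus controlled largely at the protein, which RNA levels do not measure. Glutaredoxins use glutathione to remove glutathione from modified proteins, whereas thioredoxins reduce protein disulfides with electrons passed from NADPH by thioredoxin reductases. T cells draw on both systems, and activated T cells import cystine to make glutathione.

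Each library held between 18082264 and 21893720 estimated counts, so that 3 counts, taken as the limit of detection, equalled 0.137 to 0.166 CPM. CPM are counts scaled to library size, here after TMM scaling, and serve to compare 1 gene across libraries. Levels of different redox genes are compared only as TPM, which are also divided by transcript length. Differences are log2 fold changes of DSF minus DMSO with an approximate standard error (SE), and a gene was called changed at an adjusted p under 0.05 in edgeR's quasi-likelihood test with Benjamini-Hochberg adjustment over all 14318 genes. Cd8a, which marks the T cells that the OT-I receptor yields, was at 406 to 416 CPM in DMSO and 345 to 356 CPM in DSF, and Cd4 was at 1.15 to 1.88 CPM over all libraries. Of the CD8 T cell markers, 0 of 6 were higher and 3 were lower with DSF, and their summed level was 1654 to 1689 CPM in DMSO and 1491 to 1539 CPM in DSF. Myeloid and dendritic cell markers (0 of 10 higher, 3 lower) summed to 173.9 to 181.8 CPM in DMSO and 153.6 to 169.1 CPM in DSF, and B cell markers (0 of 8 higher, 2 lower) to 259.4 to 272.2 and 242.2 to 257.2 CPM. The CD4 and regulatory T cell list (4 of 5 tested, 2 higher, 1 lower) summed to 55.01 to 59.0 CPM in DMSO and 59.68 to 65.87 CPM in DSF. Natural killer markers (2 of 3 tested) reached at most 8.313 CPM in sum and stromal and endothelial markers (4 of 5 tested) at most 38.44 CPM, with 0 called in either list, and all 6 erythroid markers stayed under 1 CPM. No listed marker was at 0 in every library. The marker sums are in CPM and thus not divided by length. Ighm (mean 191.6 CPM in DMSO) led the B cell sum, and Cst3 (mean 111.7 CPM in DMSO) the myeloid and dendritic sum. The part of these cells in the differences below was not tested, and in bulk samples fewer cells of a type and less RNA per cell cannot be told apart.

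After 2 h of DSF the redox genes as a group moved little and in both directions. Thioredoxin (Txn1), the catalytic subunit of glutamate-cysteine ligase (Gclc), the cystine transporter subunit Slc7a11 and the efflux pump Abcc1 were higher, while the glutaredoxins Glrx and Glrx5, the peroxiredoxin Prdx1, the NADPH-producing enzyme Pgd and the NRF2 target Osgin1 were lower. These 4 higher and 5 lower genes made up 20.9% of the 43, against 22.9% of all genes tested (11.6% higher and 11.3% lower), a share near the background. The remaining 34 were not called, and every one of them had a fitted log2 difference within 0.2 of 0. The groups did not overlap in 19 of the 43 genes (9 higher and 10 lower with DSF), or 44.2%, against 35.4% of all genes.

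The median log2 fold change of the 43 was -0.01, beside -0.003 over all genes, with 21 values above 0 and 22 below. Sizes were small: the median size of a difference was 0.08, beside 0.12 over all genes, and 39 of the 43 (90.7%) lay within 0.2 of 0, beside 66.4% of all genes. All genes include many of low count, whose fitted differences are less precise. The comparison was not matched for level, so smaller sizes may reflect how abundant the members are, which was not tested. A single member was called with a change of at least 1.5-fold, which 4.34% of all genes were. Only Glrx, Txn1 and Osgin1 were called under all 14 alternative settings, and all 9 called members kept their direction under each of them.

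**Figure D1:**
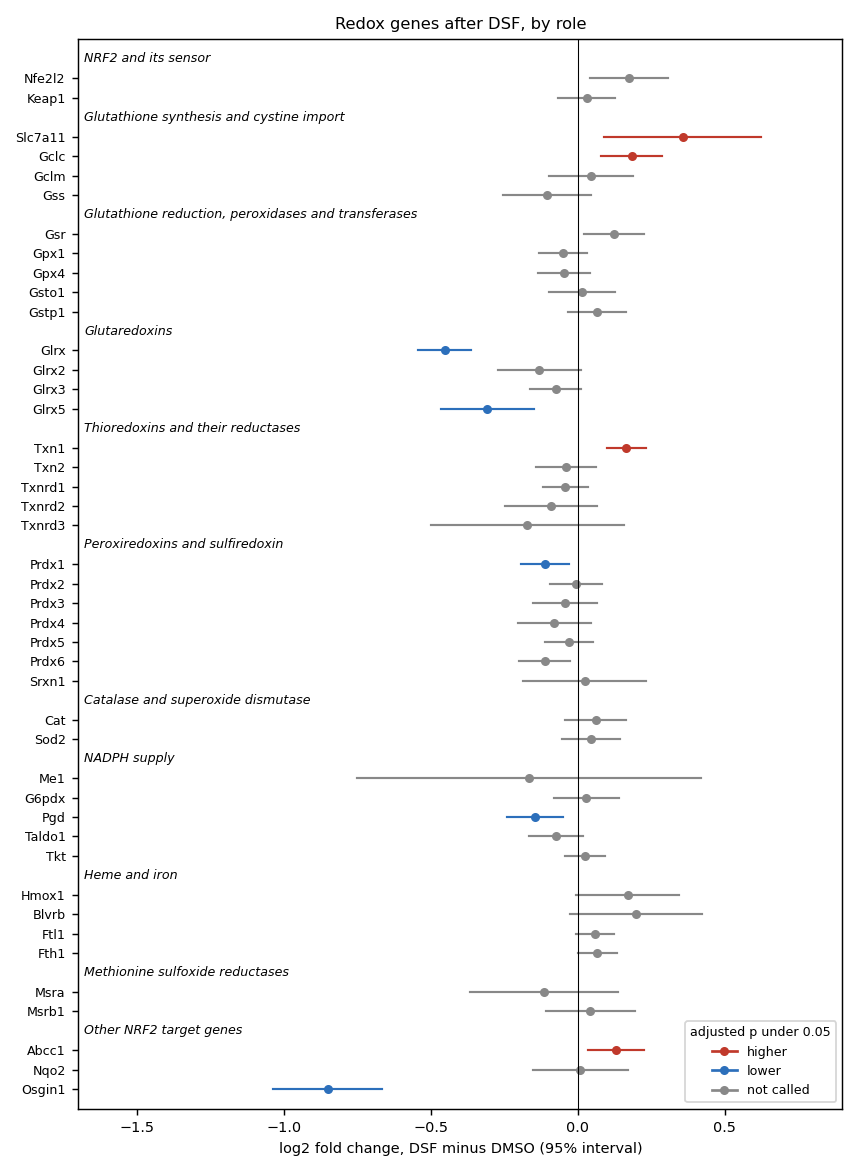
Log2 fold change of each of the 43 redox genes, DSF minus DMSO, with its 95% interval from edgeR's fit (horizontal axis), grouped by role (vertical axis), with 3 libraries a group. Red and blue points are the 4 genes called higher and the 5 called lower, grey points the 34 that were not called, and Osgin1 at -0.85 and Glrx at -0.45 stand farthest to the left.

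The transcription factor gene itself was fitted slightly higher with DSF and missed the threshold. Nfe2l2, which encodes NRF2 (chromosome 2, 75675513 to 75704641, GRCm38), stood at 26.1, 26.3 and 25.7 CPM in the DMSO libraries and at 30.3, 27.5 and 30.4 CPM in the DSF libraries. Every DSF library was above every DMSO library, with the second DSF library the closest to the controls. The difference was 0.17 ± 0.06 (SE, log2; 95% interval 0.04 to 0.31), with an adjusted p of 0.0503 in edgeR's quasi-likelihood test. It passed the threshold under 5 of the 14 alternatives (adjusted p 0.0278 to 0.195 over all 14), including without DSF replicate 2 (0.0278). Keap1, the sensor, was at 80.8, 84.5 and 85.3 CPM in DMSO and 82.9, 83.5 and 89.6 CPM in DSF, and the groups overlapped (0.03 ± 0.05, adjusted p = 0.722, edgeR).

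In 5 of these genes the core letters of the antioxidant response element lie within 250 bases upstream of a RefSeq start. The matches are shown because NRF2 is known to act through elements with this core. Whether it acts through these 5 sites was not tested. The core was searched as TGACNNNGC on both strands in windows from the RefSeq table for GRCm38.p6, which held 37 of the 43 genes in 51 windows. A match was present in 5 of the 51 member windows, a share near the 10.2% of all 32851 windows of the same length. The lines below run in the direction of the gene, and the capitals mark the match.
G6pdx (chrX:74428903-74428963, minus strand): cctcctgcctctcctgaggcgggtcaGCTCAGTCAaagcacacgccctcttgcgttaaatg
Gclm (chr3:122245397-122245457, plus strand): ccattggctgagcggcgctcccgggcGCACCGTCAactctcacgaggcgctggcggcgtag
Nfe2l2 (chr2:75704869-75704913, minus strand): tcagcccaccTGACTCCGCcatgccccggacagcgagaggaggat
Prdx1 (chr4:116685440-116685500, plus strand): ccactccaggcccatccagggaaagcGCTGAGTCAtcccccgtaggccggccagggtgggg
Txnrd1 (chr10:82859088-82859148, plus strand): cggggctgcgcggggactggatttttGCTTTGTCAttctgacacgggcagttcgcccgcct

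The match of Nfe2l2 ran in the gene's own direction, and those of the other 4 genes lay on the opposite strand. The match began 57 bases before the RefSeq start of G6pdx, 92 before Txnrd1, 133 before Prdx1, 134 before Gclm and 240 before Nfe2l2. The sites of G6pdx and Txnrd1 lie inside the spans that GENCODE gives these genes (chromosome X, 74409483 to 74429194, and chromosome 10, 82833951 to 82897712). Both thus precede RefSeq starts downstream of the first annotated ones. Of the 7 called members with a window, Prdx1 alone held a match, and Prdx1 was lower with DSF. Gclc and Abcc1, both called higher, had no window and were not searched, nor were Hmox1, Gsr, Prdx6 and Msra. Sites farther than 250 bases upstream were not searched for any gene. Txnrd1, Gclm, G6pdx and Nfe2l2 were not called. A match of these letters is a description of the window and shows no binding.

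Import of cystine and synthesis of glutathione held 2 of the 4 genes called higher. Slc7a11 (ENSMUSG00000027737, chromosome 3, 49892526 to 50443614) encodes the transporter subunit that takes up cystine in exchange for glutamate. It was at 5.74, 5.32 and 5.19 CPM in DMSO and 6.82, 6.76 and 7.2 CPM in DSF, so the groups were apart although the gene was among the lowest of the 43 per length (0.85 TPM in DMSO and 1.04 TPM in DSF). The rise was 1.28-fold (0.36 ± 0.13 log2, SE, n = 3 a group; adjusted p = 0.0479, edgeR). This call was narrow: the adjusted p was 0.115 without DMSO replicate 2, 0.111 without DMSO replicate 3, and 0.0747, 0.0769 and 0.14 without DSF replicates 1, 2 and 3. It was 0.194 with DESeq2, 0.0801 without the filter on low counts and 0.394 in limma on log2(TPM + 1), and all alternatives spanned 0.0415 to 0.394.

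Gclc (ENSMUSG00000032350, chromosome 9, 77754535 to 77794485) encodes the catalytic subunit of glutamate-cysteine ligase, the enzyme of the rate-limiting step of glutathione synthesis. Its level was 47.9, 45.7 and 47.5 CPM in DMSO and 53.1, 51.9 and 55.1 CPM in DSF. All DSF libraries lay above all DMSO libraries, and the rise was 1.14-fold (0.18 ± 0.05, adjusted p = 0.00773, edgeR). The call was lost without DMSO replicate 2 (0.065), without DSF replicate 3 (0.0594) and in limma on log2(TPM + 1) (0.122), over a range of 0.00262 to 0.122.

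The partner subunit was not called. Gclm, the modifier subunit that raises the activity of the ligase, was at 28.6, 26.5 and 24.5 CPM in DMSO and 25.8, 26.8 and 29.2 CPM in DSF, with overlapping groups (0.04 ± 0.07, adjusted p = 0.731, edgeR). The ratio of Gclc to Gclm in TPM was 0.82 ± 0.05 (SD, n = 3) in DMSO and 0.908 ± 0.102 in DSF, and the DSF library closest to the controls (0.837) fell inside the range of the DMSO libraries (0.767 to 0.857). Gss, the glutathione synthetase that completes the tripeptide, had a log2 difference of -0.10 and was not called (adjusted p = 0.358).

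Among the genes that reduce or use glutathione, 0 of 5 were called. Gsr, glutathione reductase, which restores reduced glutathione with NADPH, came nearest: 49.7, 52.5 and 50.5 CPM in DMSO and 53.4, 57.2 and 55.7 CPM in DSF. The groups did not overlap, and the difference was 0.12 ± 0.05 with an adjusted p of 0.081 (edgeR; range 0.0389 to 0.648, called under 1 of the 14 alternatives). The peroxidases Gpx1, which removes hydrogen peroxide, and Gpx4, which removes lipid peroxides, both differed by -0.05, the transferase Gsto1 by 0.01 and the transferase Gstp1 by 0.07. Gstp1 has close copies, of which Gstp3 carried a mean of 6546 counts a library beside 1706 for Gstp1, and reads shared among them may have been split by the counting.

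The glutaredoxins held the strongest change of the 43 genes by p-value. Glrx (glutaredoxin-1, ENSMUSG00000021591, chromosome 13, 75839868 to 75850154) is the main cytosolic enzyme that strips glutathione from proteins. It was at 112, 111 and 116 CPM in the DMSO libraries and at 82.9, 84 and 80.9 CPM in the DSF libraries. The groups were far apart beside their spread (113 ± 2.79 and 82.6 ± 1.59 CPM, SD, n = 3), and the level in DSF was 0.73 of that in DMSO (-0.45 ± 0.04, adjusted p = 1.49e-09, edgeR).

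Glrx5 (ENSMUSG00000021102, chromosome 12, 105032688 to 105042906), a mitochondrial glutaredoxin that takes part in iron-sulfur cluster assembly, was lower as well. The DMSO libraries had 24.8, 30.7 and 27.2 CPM and the DSF libraries 20.6, 22.2 and 24.1 CPM. The highest DSF library lay just under the lowest DMSO library, and the fitted level in DSF was 0.808 of that in DMSO (-0.31 ± 0.08, adjusted p = 0.00354, edgeR). Without DMSO replicate 2, the highest of the controls, the adjusted p was 0.0563, and in limma on log2(TPM + 1) it was 0.195 (range 0.000148 to 0.195).

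The other members of this family were not called. Glrx2, a mitochondrial form that can bind an iron-sulfur cluster, was at 24.15, 24.61 and 24.98 CPM in DMSO and 20.73, 23.54 and 23.0 CPM in DSF, without overlap (-0.13, adjusted p = 0.199, edgeR). Glrx3, a form with monothiol domains that handles cytosolic iron, overlapped between groups (-0.08, adjusted p = 0.226). All 4 fitted differences were below 0. Per length, the summed level of the 4 glutaredoxins was 308.7 ± 3.34 TPM (SD, n = 3) in DMSO and 270.4 ± 12.1 TPM in DSF, and Glrx made up 42.5% ± 1.74 of that sum in DMSO and 37.9% ± 1.11 in DSF.

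In the thioredoxin system thioredoxin itself rose and its reductases were not called. Txn1 (thioredoxin-1, ENSMUSG00000028367, chromosome 4, 57943373 to 57956411), which reduces disulfides in ribonucleotide reductase, peroxiredoxins and transcription factors, was at 300.5, 292.3 and 288.4 CPM in DMSO and at 331.7, 327.7 and 328.3 CPM in DSF. The DSF libraries were nearly alike and all above the controls. The rise was 1.12-fold (0.16 ± 0.03, adjusted p = 0.00025, edgeR). A processed copy, Txn-ps1, carried a mean of 1.17 counts a library.

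Txnrd1, the cytosolic selenoenzyme that reduces thioredoxin and a known NRF2 target, was at 178.5, 174.1 and 169.9 CPM in DMSO and 171.3, 164 and 171.7 CPM in DSF. The groups overlapped, and the interval of the log2 difference ran from -0.12 to 0.03 (-0.04 ± 0.04, adjusted p = 0.482, edgeR). The mitochondrial pair, Txn2 and its reductase Txnrd2, differed by -0.04 and -0.09, and Txnrd3 by -0.17 with a wide interval (-0.50 to 0.16) at 5.15 CPM in DMSO and 4.59 CPM in DSF. None of these 3 was called. The ratio of Txn1 to Txnrd1 in TPM was 5.89, 5.91 and 5.84 in DMSO and 6.68, 6.87 and 6.59 in DSF.

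Because Txn1 rose and Glrx fell, the ratio between these abundant cytosolic thiol reductants was higher at the RNA level in every DSF library than in any control. The ratio of Txn1 to Glrx in TPM was 3.53, 3.63 and 3.29 in the DMSO libraries and 5.21, 4.68 and 5.38 in the DSF libraries. The mean ratio was 3.48 ± 0.18 (SD, n = 3) in DMSO and 5.09 ± 0.367 in DSF. This ratio combines 2 called genes and was chosen after their values were seen, so it is given without a test.

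**Figure D2:**
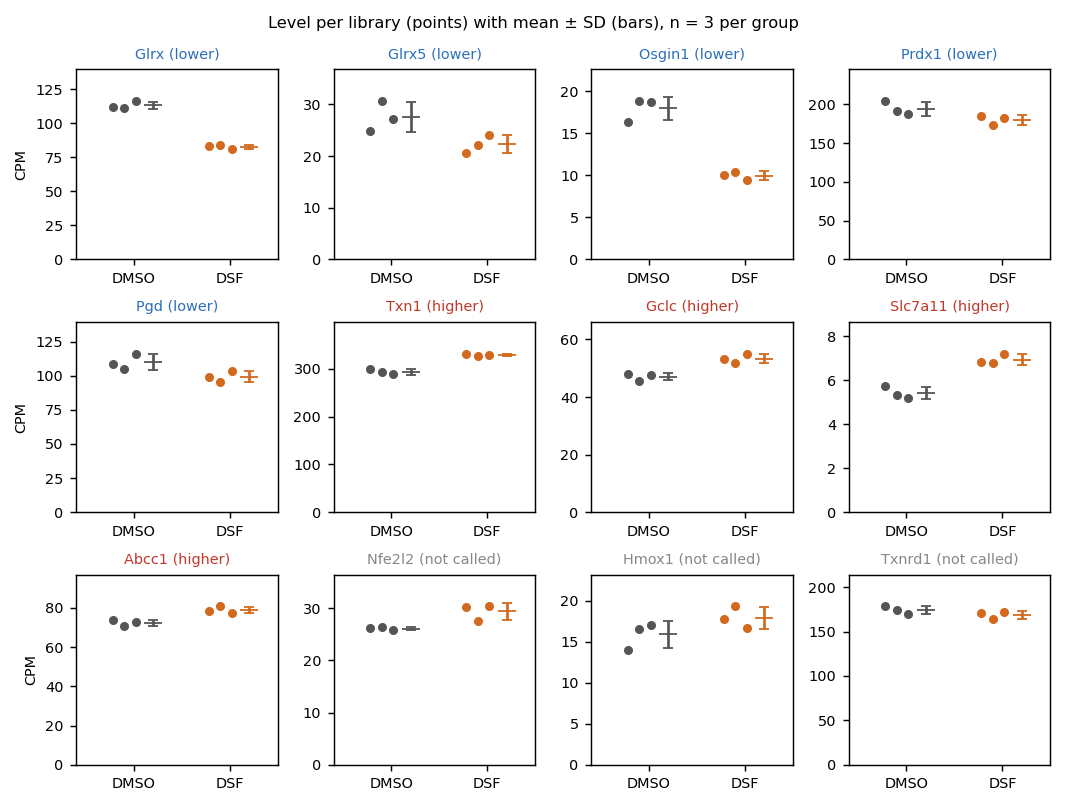
Level of 12 redox genes in each library in CPM (vertical axis, from 0), with DMSO in grey and DSF in orange, points for libraries and bars for the mean and SD of 3. The 9 called genes show no overlap between groups, by a narrow margin in Glrx5, Prdx1 and Pgd, whereas Hmox1 and Txnrd1, which were not called, do overlap.

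The upstream windows of Glrx, Txn1 and Osgin1, the members called under every alternative, are printed because their RNA levels changed most firmly and their starts differ in base composition. Each is the 250 bases before a RefSeq start in GRCm38.p6, in the direction of the gene, with every CG in capitals.
Txn1 (chr4:57956412-57956661, minus strand): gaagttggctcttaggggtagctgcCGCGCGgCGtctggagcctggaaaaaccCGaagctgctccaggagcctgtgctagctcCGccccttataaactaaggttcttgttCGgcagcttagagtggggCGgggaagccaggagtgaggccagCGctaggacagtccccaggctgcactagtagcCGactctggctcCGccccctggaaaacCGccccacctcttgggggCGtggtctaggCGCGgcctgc
Glrx (chr13:75839635-75839884, plus strand): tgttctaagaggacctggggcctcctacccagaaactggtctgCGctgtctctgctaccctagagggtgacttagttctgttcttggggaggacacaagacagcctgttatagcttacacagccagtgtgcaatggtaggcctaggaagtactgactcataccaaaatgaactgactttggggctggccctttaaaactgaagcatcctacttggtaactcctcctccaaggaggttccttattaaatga
Osgin1 (chr8:119436897-119437146, plus strand): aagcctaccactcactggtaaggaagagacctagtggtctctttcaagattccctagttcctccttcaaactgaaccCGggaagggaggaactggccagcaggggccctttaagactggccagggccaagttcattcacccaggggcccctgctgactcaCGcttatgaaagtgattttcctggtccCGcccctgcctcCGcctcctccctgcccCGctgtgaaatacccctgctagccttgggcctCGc

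The Txn1 window held 15 CG steps and 64% G and C bases, the Glrx window 1 and 48.8%, and the Osgin1 window 6 and 58.4%, beside medians of 6 and 52.4% over all windows. The letters TGACNNNGC were in none of these 3 windows. The Osgin1 window lies inside the span that GENCODE gives that gene (chromosome 8, 119434124 to 119446256), so it precedes a RefSeq start downstream of the first annotated one.

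The list of peroxiredoxins, which reduce peroxides and are mostly recharged by thioredoxin, and sulfiredoxin held 1 called gene among 7. Prdx1 (ENSMUSG00000028691, chromosome 4, 116685544 to 116700822), an abundant cytosolic form, was at 204.1, 191.6 and 187 CPM in DMSO and 184.9, 172.6 and 181.7 CPM in DSF. The highest DSF library lay just under the lowest DMSO library, and the level in DSF was 0.926 of that in DMSO (-0.11 ± 0.04, adjusted p = 0.0391, edgeR). The call did not hold without DMSO replicate 1 (0.193), DMSO replicate 2 (0.0526), DSF replicate 2 (0.282) or DSF replicate 3 (0.0928), nor with DESeq2 (0.0696) or limma on log2(TPM + 1) (0.173), over a range of 0.00685 to 0.282.

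Prdx6, which also has phospholipase activity, had a fitted difference of the same size and missed the threshold. Its libraries had 124.8, 133.7 and 123.4 CPM in DMSO and 118.9, 116.1 and 118.4 CPM in DSF, without overlap (-0.11 ± 0.04, adjusted p = 0.0557, edgeR; range 0.0246 to 0.47, called under 4 of the 14 alternatives). Prdx2, Prdx3, Prdx4 and Prdx5 differed by -0.01, -0.04, -0.08 and -0.03 and were not called. Srxn1, the sulfiredoxin that repairs over-oxidised peroxiredoxins and is a sensitive NRF2 target, was at 11.75, 10.28 and 13.16 CPM in DMSO and 12.3, 12.23 and 11.19 CPM in DSF (0.02 ± 0.10, adjusted p = 0.91, edgeR). Its DSF libraries all fell within the range of the DMSO libraries. Catalase (Cat, 0.06) and the mitochondrial superoxide dismutase Sod2 (0.04) were not called either.

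Of the 5 genes that supply NADPH, 1 was called. Pgd (ENSMUSG00000028961, chromosome 4, 149149991 to 149166771), 6-phosphogluconate dehydrogenase of the pentose phosphate pathway, was at 108.7, 105.1 and 116.2 CPM in DMSO and 98.92, 95.45 and 103.5 CPM in DSF. The groups did not overlap, and the level in DSF was 0.903 of that in DMSO (-0.15 ± 0.05, adjusted p = 0.02, edgeR). The adjusted p rose to 0.164 without DMSO replicate 3, 0.07 without DSF replicate 1, 0.159 without DSF replicate 2 and 0.327 in limma on log2(TPM + 1), over a range of 0.00307 to 0.327.

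G6pdx, which performs the first step of that pathway, differed by 0.03, and Taldo1 and Tkt, which rearrange its sugars, by -0.07 and 0.02. The cytosolic malic enzyme Me1, an NRF2 target in many tissues, had the lowest level per length of the 43 genes (0.67 TPM in DMSO and 0.593 TPM in DSF) and the widest interval (-0.75 to 0.42). These 4 genes were not called.

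The 4 heme and iron members were all fitted above 0 and none was called. Hmox1 (chromosome 8, 75093621 to 75100589), heme oxygenase-1, the classic stress-induced enzyme of heme breakdown, was at 14.02, 16.6 and 17.11 CPM in DMSO and 17.79, 19.35 and 16.71 CPM in DSF. The third DSF library fell inside the range of the controls (0.17 ± 0.09, 95% interval -0.01 to 0.34, adjusted p = 0.174, edgeR). The log2 difference ran from 0.0908 to 0.2259 with 1 library left out, and no alternative called it. Blvrb, biliverdin reductase B, had 7.743, 8.234 and 8.408 CPM in DMSO and 9.975, 8.752 and 9.267 CPM in DSF, without overlap (0.20, adjusted p = 0.226).

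The ferritin chains, which store iron, were the 2 most abundant of the 43 transcripts per length. Ftl1, the light chain, averaged 843.9 TPM in DMSO and 892.1 TPM in DSF, and Fth1, the heavy chain, 659.6 and 711 TPM. In CPM both had groups without overlap, with log2 differences of 0.06 (adjusted p = 0.212) and 0.07 (adjusted p = 0.159) in edgeR's test. A processed copy, Ftl1-ps1, carried a mean of 12.8 counts a library.

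Among the remaining members, Osgin1 and Abcc1 were called in opposite directions although both are listed as NRF2 targets. Osgin1 (ENSMUSG00000074063), a growth inhibitor gene induced by oxidative stress, had the largest difference of the 43. It was at 16.4, 18.8 and 18.7 CPM in DMSO and 10.09, 10.44 and 9.411 CPM in DSF. No DSF library came near the controls, and the level in DSF was 0.554 of that in DMSO (-0.85 ± 0.09, adjusted p = 9.37e-09, edgeR).

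Abcc1 (ENSMUSG00000023088, chromosome 16, 14361558 to 14475737), the pump MRP1 that exports glutathione and its conjugates, was at 73.6, 70.6 and 72.6 CPM in DMSO and 78.7, 80.9 and 77.4 CPM in DSF. The groups did not overlap, and the rise was 1.09-fold (0.13 ± 0.05, adjusted p = 0.045, edgeR). It was not called without DMSO replicate 2 (0.161), DMSO replicate 3 (0.0726) or DSF replicates 1, 2 and 3 (0.0781, 0.161 and 0.0752), nor with DESeq2 (0.0959), without the filter on low counts (0.0786) or in limma on log2(TPM + 1) (0.202), over a range of 0.0232 to 0.202. The quinone reductase Nqo2 differed by 0.01, and the methionine sulfoxide reductases Msra and Msrb1, which repair oxidised methionine, by -0.12 and 0.04, and none was called.

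Among the 43, 6 are selenoproteins (Gpx1, Gpx4, Txnrd1, Txnrd2, Txnrd3 and Msrb1), in which selenocysteine sits at the active site. Of these 6, 0 were called in edgeR's test and 0 had an unadjusted p under 0.05, and their median log2 difference was -0.05. Over all genes tested 22.9% were called, and 6 genes are too few to set against that share. The groups did not overlap in 1 of the 6 (Txnrd2, lower with DSF), beside 35.4% of all genes.

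Per length, the 43 genes spanned about 3 orders of magnitude, from Me1 to Ftl1. After the ferritins came Txn1 (456 TPM in DMSO and 519.8 TPM in DSF) and Tkt (425.2 and 445.8 TPM), and Glrx stood at 131.1 ± 6.65 TPM in DMSO and 102.6 ± 7.38 TPM in DSF, lower than Gpx1, Gpx4, Prdx5, Prdx1 and Gstp1 in the controls. Summed over all 43, the level was 4852 ± 79.3 TPM (SD, n = 3) in DMSO and 4972 ± 29.4 TPM in DSF, a ratio of 1.02. By role, the summed TPM in DSF relative to DMSO was 1.099 for thioredoxins and their reductases, 1.07 for NRF2 and its sensor and for heme and iron genes, 0.953 for peroxiredoxins and sulfiredoxin, 0.876 for glutaredoxins and 0.854 for the other NRF2 targets (Abcc1, Nqo2 and Osgin1). The remaining roles lay between 1.01 and 1.04. These sums are led by their most abundant members.

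**Figure D3:**
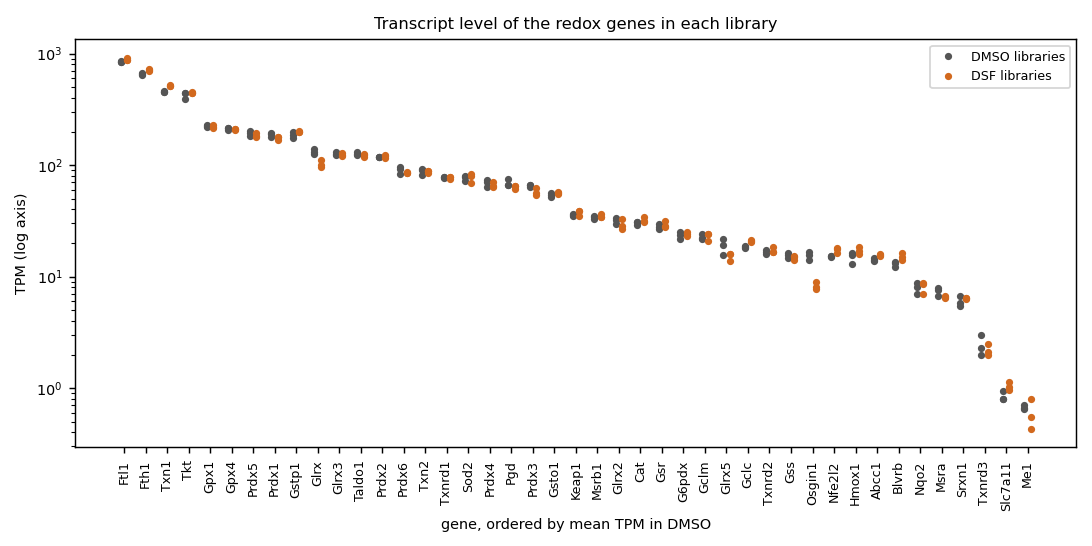
TPM of the 43 redox genes in each library on a log axis (vertical), ordered by mean TPM in DMSO (horizontal), with DMSO libraries in grey and DSF libraries in orange. Ftl1 at 843.9 TPM and Me1 at 0.67 TPM mark the ends in DMSO, and among the more abundant genes Glrx is visibly lower and Txn1 higher in all 3 DSF libraries.

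The exons of the 9 called members overlap no other gene in GENCODE M21. An antisense neighbour shares exon bases with Keap1, Gclm, Gss, Txnrd2, Prdx2, Prdx5, Me1, G6pdx, Ftl1 and Nqo2, and a same-strand neighbour with Gclm, Tkt and Ftl1. No source used here says whether counting used strand, so reads of such pairs may be mixed. In the authors' deposited table, 6 of the 43 had an adjusted p under 0.05, against 8.54% of the 27139 genes with one there. Only 14260 genes of the series had a mean of at least 10 counts, which all 43 did. The 8.54% is therefore not a matched background for the members. They were Gclc and Txn1, higher, and Glrx, Glrx5, Pgd and Osgin1, lower, and all 6 are among the 9 called by edgeR. The log2 fold changes of the 43 in the authors' deposited table differed from those given here by at most 0.004.

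To place the 43 in their pathways, 139 further genes were taken in 7 lists, of which 130 were tested. Of these, 13 were called higher and 17 lower with DSF, or 23.1%, again near the 22.9% of all genes, and their median log2 fold change was -0.004. Nqo1, a quinone reductase widely used as an NRF2 readout, was among the 9 that did not pass the filter on low counts. For each list, up to 3 called genes with the smallest p are described.

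Among the pathway lists, that of NRF2 control had the most calls for its size. The list holds regulators of NRF2 and also its pairing partners, a related factor and competing repressors. Of 12 tested, 4 were higher and 1 was lower (41.7%), with a median of 0.11. Over all genes tested 22.9% were called. The list is the highest of several small ones, and 12 genes are too few to set against that share. Whether NRF2 control was affected more than other genes was not tested. Sqstm1 encodes p62, an autophagy receptor that binds KEAP1 and is also an NRF2 target. It was at 410.2, 410.5 and 410.3 CPM in DMSO and 538.1, 522.4 and 539 CPM in DSF, a rise of 1.30-fold with a tight spread (0.38, adjusted p = 3.89e-11, edgeR). The small MAF gene Mafg, whose protein pairs with NRF2, had 51.76, 54.86 and 48.17 CPM in DMSO and 61.9, 65.87 and 62.9 CPM in DSF (1.23-fold, adjusted p = 5.66e-05), and Nfe2l1, the NRF1 factor related to NRF2, rose 1.16-fold (adjusted p = 0.000123).

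The remaining called genes of this list are the related repressors Bach1 and Bach2, which compete for the same DNA elements and are named after their values were seen. Bach1 was 1.18-fold higher (adjusted p = 0.0105) and Bach2 was at 0.818 of its DMSO level (adjusted p = 0.000551) in edgeR's test. Bach2 kept its call under all 14 alternatives, and Bach1 lost it without DSF replicate 2 (0.0999), with DESeq2 (0.0637) and in limma on log2(TPM + 1) (0.318), over a range of 0.00352 to 0.318. An exon of Sqstm1 overlaps Mrnip on the opposite strand, Bach2 overlaps Bach2os there, and Mafg overlaps Sirt7 on the same strand. Of the pathway genes described below, Txndc5, Txnip, Mthfd1, Me3, Flvcr1, Ppox and Sephs2 also share exon bases with an opposite-strand gene. Pdia4 does so with Mir704 on the same strand.

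In the list of other glutathione genes, 1 of 26 tested was higher and 2 were lower (median 0.01). Slc3a2, the heavy chain that anchors Slc7a11 in the membrane, was higher by 0.11 (adjusted p = 0.0461), and Gpx7, an endoplasmic reticulum peroxidase, and Gstp3 were lower by -0.60 (adjusted p = 0.038) and -0.10 (adjusted p = 0.0279) in edgeR's test. None of these 3 calls held in every fit that left out 1 library: Slc3a2 lost it without DMSO replicate 1 or 3 or DSF replicate 1 or 2 (0.0566 to 0.216), Gpx7 without DMSO replicate 1 or 2 or DSF replicate 2 or 3 (0.0696 to 0.193), and Gstp3 without any library but DMSO replicate 3 (0.0633 to 0.148).

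Among other thioredoxin-fold genes, 1 of 19 was higher and 3 were lower (median -0.02). The lower genes were Txndc5 (-0.18, adjusted p = 0.00461) and Pdia4 (-0.16, adjusted p = 0.0173), disulfide isomerases of the endoplasmic reticulum, and Txnip (-0.10, adjusted p = 0.0235), the protein that binds and inhibits thioredoxin. Pdia4 was not called without DMSO replicate 1 or 2 or DSF replicate 1 or 3 (0.0505 to 0.146), nor Txnip without DMSO replicate 2 or any DSF replicate (0.0514 to 0.151). Txndc5 kept its call in those fits.

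The list of superoxide enzymes, sestrins and related genes had 2 of 15 higher and 2 lower (median -0.02), and its 3 sestrins, which restrain mTORC1, were called in both directions. Sesn1 was at 62.86, 60.05 and 58.21 CPM in DMSO and 84.07, 85.01 and 85.75 CPM in DSF (1.41-fold, adjusted p = 1.26e-09, edgeR). Sesn3 went from 293.8, 289.7 and 312.8 CPM to 243.7, 239.5 and 248.4 CPM (0.816 of the DMSO level, adjusted p = 1.12e-07), and Sesn2 was lower by -0.19 (adjusted p = 0.0317). The Sesn2 call was lost without DMSO replicate 2 or 3 or any DSF replicate (0.0664 to 0.19).

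In the list of other NADPH genes, 2 of 18 were higher and 3 lower (median -0.01). Mthfd1, a cytosolic enzyme of folate metabolism, was lower by -0.21 (adjusted p = 0.000705) and the mitochondrial malic enzymes Me3 and Me2 differed in direction (-0.38, adjusted p = 0.00809, and 0.13, adjusted p = 0.0186, edgeR). Me3 was not called without DSF replicate 2 (0.105), nor Me2 without DMSO replicate 2 or 3 or DSF replicate 3 (0.065 to 0.0839).

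Other heme and iron genes had 2 of 21 higher and 4 lower (median -0.05). The heme exporter Flvcr1 (0.26, adjusted p = 0.00159) and the heme synthesis enzyme Ppox (0.20, adjusted p = 0.0126) were higher, and Ncoa4, the receptor that sends ferritin to autophagy, was lower (-0.14, adjusted p = 0.0234, edgeR). Ppox was not called without DSF replicate 3 (0.0623), nor Ncoa4 without DMSO replicate 1 (0.18) or DSF replicate 2 (0.17).

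Selenoproteins and the genes of their synthesis had 1 of 19 higher and 2 lower (median -0.04). Sephs2, which makes the selenium donor for selenocysteine, had 47.76, 50.68 and 48.57 CPM in DMSO and 34.03, 34.85 and 32.17 CPM in DSF, or 0.687 of the DMSO level (adjusted p = 2.78e-09, edgeR). An exon of Sephs2 overlaps Gm44729 on the opposite strand. Selenos and Selenok, membrane proteins of the endoplasmic reticulum, went in opposite directions (-0.25, adjusted p = 0.000361, and 0.17, adjusted p = 0.0176), and Selenok was not called without DMSO replicate 2 or 3 or DSF replicate 1 (0.0648 to 0.108).

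Of the 21 pathway genes chosen by that rule, 7 (Sqstm1, Mafg, Nfe2l1, Sesn1, Mthfd1, Sephs2 and Selenos) were called under all 14 alternatives. The others lost their call in limma on log2(TPM + 1), with adjusted p-values from 0.0524 for Me2 to 0.508 for Gstp3, including Sesn3 (0.122), Txndc5 (0.0915) and Flvcr1 (0.212). With DESeq2 the calls of Gpx7 (0.194), Slc3a2 (0.0711), Sesn2 (0.147), Me3 (0.0557), Ppox (0.0749) and Selenok (0.055) were lost too.

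**Figure D4:**
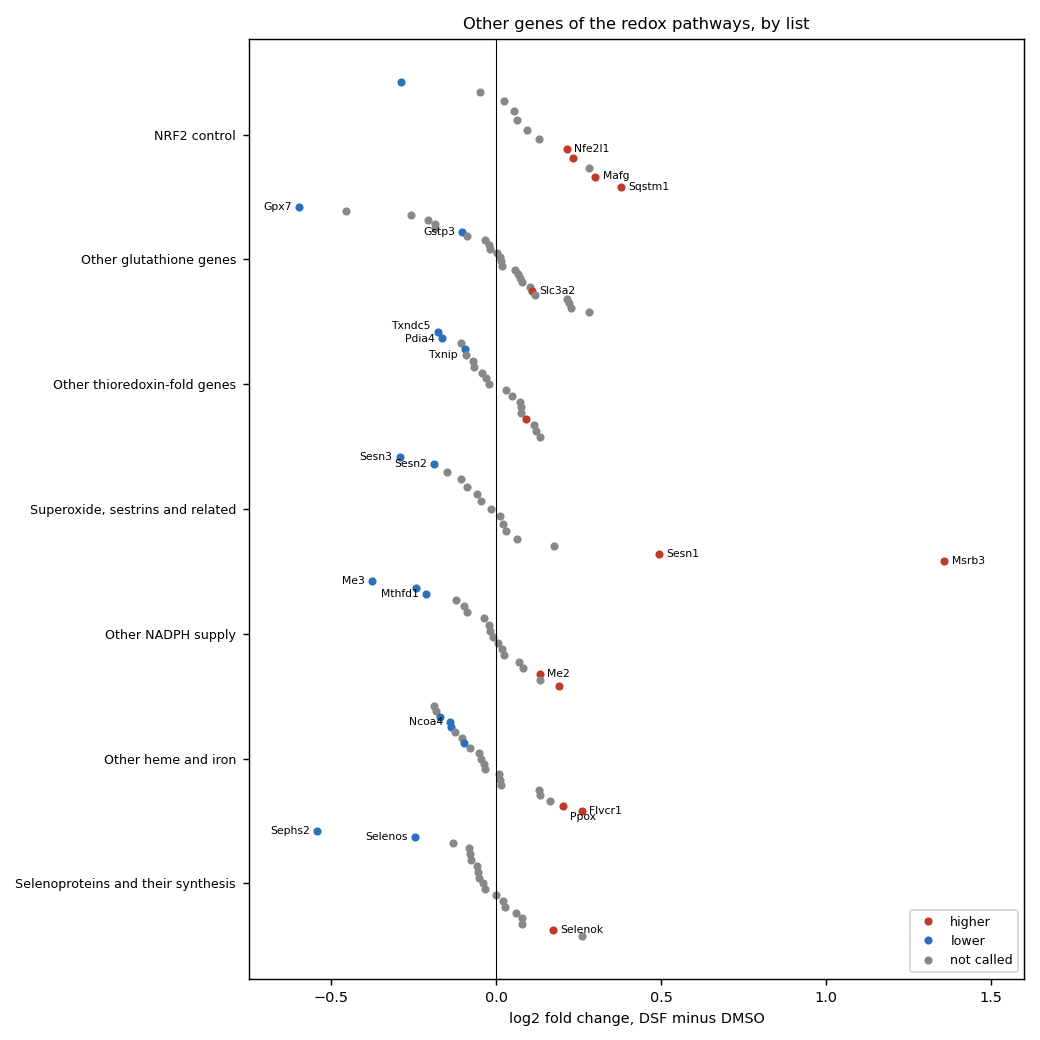
Log2 fold change, DSF minus DMSO (horizontal axis), of the 130 further redox genes tested, in 7 lists (vertical axis), each point 1 gene fitted over 3 libraries a group. Red and blue points are the 13 genes called higher and the 17 called lower, with the described genes and Msrb3 labelled, and calls stand on both sides of 0 in every list.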

How the data were processed

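RNA sequencing values of 3 DMSO and 3 DSF samples were used. The authors deposited estimated counts and TPM per gene with each gene's length, per the file headers, and the submitters' processing notes name the builds GRCm38 and mm10. Aligner, counter and strand setting were not given in the sources used here. A table of log2 fold changes, with adjusted p-values, was deposited by the authors, per the file headers. Its mean columns, headed DO and DF, equalled the means of the sample columns coded A and B in all 55536 genes (within 0.0001 TPM), and so tied these columns to the groups.

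Estimated counts, of which 31.6% to 32.9% of the nonzero values were not whole, were rounded and filtered (filterByExpr, 14318 genes kept and 41218 removed), scaled by TMM (factors 0.9952 to 1.005) and tested with edgeR 4.0.16 (robust quasi-likelihood, R 4.3.3), with Benjamini-Hochberg adjustment over all genes kept. The biological coefficient of variation was 4.44%. SEs are the log2 fold change divided by the root of its F statistic, and intervals use the t distribution with edgeR's degrees of freedom. Alternatives used other scaling, filters and rounding, DESeq2 1.42.0, limma 3.58.1 (voom, and log2(TPM + 1)) and leaving out each library. The script was tested on simulated data. Replicates differed by more than counting noise (chi-square per degree of freedom 2.22 to 4.28), and none was merged. Promoter windows came from RefSeq, and gene positions from GENCODE M21.

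The members and lists were chosen with earlier results of these data known. Every called member and 10 core genes, called or not, are described by library, and up to 3 called genes with the smallest p in each of the 7 pathway lists are named. Outside this rule, Glrx2, Prdx6 and Blvrb, whose groups did not overlap, are shown by library too. Txnrd2, Prdx5, Taldo1, Ftl1 and Fth1, also not called and without overlap, are not.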

Additional observations from a re-analysis of the deposited data

How the results depend on the processing

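Each count below was recomputed under 14 alternatives. Of the 43 redox genes, 4 were called higher and 5 lower in the reported fit. Without the filter on low counts 2 were higher, with DESeq2 2 were higher, and in limma on log2(TPM + 1) 1 was higher and 2 were lower. Of the other redox pathway genes (13 higher, 17 lower), DESeq2 called 7 higher and 10 lower and limma on log2(TPM + 1) 5 and 4. That fit called 1383 of all genes, against 3276, and gave a median over the 43 genes of 0.0167, against -0.0061. Leaving out 1 library gave 1 to 4 higher and 3 to 5 lower redox genes, 8 to 12 higher and 9 to 13 lower pathway genes, and medians from -0.0165 to 0.0041. The count of higher redox genes fell to 1 without DMSO replicate 2 or DSF replicate 3 and to 2 without DMSO replicate 3 or DSF replicate 1, and that of lower ones to 3 without DMSO replicate 2 or DSF replicate 2.

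With a replicate block, 6 redox genes were higher and 6 lower (median -0.0064), with 16 and 21 of the pathway genes and 3829 of all genes. Gsr (adjusted p = 0.0389), Nfe2l2 (0.0309) and Prdx6 (0.0246) were called in that edgeR fit. Same-numbered samples deviated together only weakly (correlations 0.0454, 0.0349 and 0.0547), each best with its own number, which is a hint from the data. The labels tie the numbers to no shared mouse or batch, and the block was therefore kept as an alternative.

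Over the genes named with a difference, including Bach1, Bach2 and Msrb3, for which the alternatives were added after seeing the data, 18 values changed sign, all in genes that were not called. In limma on log2(TPM + 1) the difference was 0.0478 for Txnrd2, 0.0167 for Prdx2 and -0.0092 for Sod2. With 1 library left out, values ran from -0.0048 to 0.0548 for Keap1, from -0.0092 to 0.1004 for Gclm, from -0.0166 to 0.0465 for Gsto1, from -0.3029 to 0.0094 for Txnrd3, from -0.0334 to 0.0202 for Prdx2, from -0.078 to 0.0122 for Prdx3, from -0.0685 to 0.1189 for Srxn1, from -0.2711 to 0.0264 for Me1, from -0.0016 to 0.0583 for G6pdx, from -0.0113 to 0.0476 for Tkt, from -0.0421 to 0.0457 for Nqo2. The cause was not tested. Depth limits the low genes most: the 95% interval of Me1, at 1.27 CPM in DMSO, ran from -0.75 to 0.42.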

Other observations

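Msrb3, a methionine sulfoxide reductase of the superoxide and sestrin list, is named after its values were seen. It had the largest fitted log2 difference of the pathway genes (1.36) at a very low level: 0.217, 0.273 and 0.198 CPM in DMSO and 0.72, 0.563 and 0.528 CPM in DSF, close to the detection limit of 0.137 to 0.166 CPM. Its adjusted p was 0.0353 in edgeR's test and lay between 0.0681 and 0.138 when any 1 library was left out, so the call rested on every library (0.0278 to 0.188 over the alternatives that gave a value). Among the glutathione transferases of the pi class, the deposited TPM of Gstp3 was 127 ± 1.93 (SD, n = 3) in DMSO and 123 ± 3.57 in DSF, beside a mean of 8.14 counts a library for Gstp2, and how reads were shared between these near copies was not tested.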
